A study of Mus musculus with 12 samples.

Results

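The nuclear-encoded subunits of the mitochondrial respiratory chain and ATP synthase were followed in Dkk3-null pancreatic tumor cells that were untreated or treated with recombinant DKK3 (rDKK3). Members were all protein-coding genes of the count table whose symbols carry the Ndufa, b, c, s or v prefix with a number, Sdha to Sdhd, the Uqcr prefix, Cox4 to Cox8, or the Atp5 prefix. This gave 89 of 57278 genes: 39 for complex I, 4 for complex II, 8 for complex III, 19 for complex IV and 19 for the ATP synthase (complex V). Atp5po stands in the table under 2 identifiers, so the 89 genes carry 88 symbols.

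All samples were DDKC cells, which came from pancreatic tumors of Dkk3-/- mice that also carried Ptf1a-Cre, a Cre active in the pancreas. The Dkk3 deletion was ubiquitous in these mice and was shared by untreated and treated cells. The 3 lines, DDKC_9750, DDKC_9790 and DDKC_9804, were each sequenced untreated and after rDKK3, with 2 libraries per line and condition, 12 in all. The comparison asked how tumor cells that make no DKK3 respond to the protein from outside. The labels gave neither the dose nor the duration of rDKK3 for these libraries, nor whether the libraries of a pair came from separate cultures. They differed by no more than sampling noise once a shift between library sets was allowed for, with a mean deviance per degree of freedom of 0.899 over 12979 genes. Each pair was therefore summed and counted as 1 sample, which left n = 3 lines per condition, and p-values measure the spread between these lines.

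The summed samples held between 9914553 and 36140718 counts, and the treated sample was the shallower one in all 3 lines. Dkk3 had 0 counts in 5 summed samples and 1 count in the treated sample of line DDKC_9750. The labelled cells expressed epithelial markers, whose summed level ran from 3507 to 9138 CPM (counts scaled to the size of the library), and mesenchymal markers, at 7538 to 22237 CPM. Leukocyte markers (9.54 to 46.1 CPM), endothelial markers (0.874 to 17.4 CPM) and acinar markers (0.575 to 11.8 CPM) were low, and fibroblast markers lay between 5.75 and 135 CPM.

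Complexes I and II pass electrons from NADH and succinate to ubiquinone, complex III passes them on to cytochrome c, and complex IV hands them to oxygen. Complexes I, III and IV pump protons, and complex V uses the proton gradient to make ATP. A few core subunits of complexes I, III, IV and V are encoded in the mitochondrial genome, whereas all subunits of complex II and most subunits of the others are encoded in the nucleus. Respiration is a recognised property of pancreatic tumor cells.

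Of the 89 members, 80 had enough counts to be tested: 37 for complex I, 4 for complex II, 8 for complex III, 13 for complex IV and 18 for complex V. Untreated levels ran from 1.49 CPM for Cox7a1 to 906 CPM for Atp5f1b, the catalytic beta subunit of ATP synthase (means of 3 lines). Scaled by transcript length, Atp5f1b stood at 1169 TPM (a level per transcript length, scaled to the same total in each sample) on average over the 6 samples, Atp5f1a, the alpha subunit, at 706 TPM and Cox4i1, the largest nuclear-encoded subunit of complex IV, at 696 TPM. These per-length levels depend on the transcript used for scaling, since 36 of the 80 tested members, these 3 among them, have an annotated transcript shorter than 0.5 times that one.

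The 9 members below the filter were mainly isoforms known from other tissues. Cox7b2, Cox8b, Cox8c, Ndufb11b and the second Atp5po identifier (ENSMUSG00000116933.2) had 0 counts in all 12 libraries. Cox4i2, an isoform known from lung and hypoxia, had 5 counts, Cox6a2, the heart and skeletal muscle form, had 7 and Ndufa4l2, a hypoxia-induced paralog of Ndufa4, had 11. Cox5b-ps, nearly identical in sequence to Cox5b, had 61 counts, with between 2 and 21 in each summed sample. A count of 0 allows up to 3 counts, which correspond to between 0.127 and 0.755 CPM in these libraries (counting error only).

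With rDKK3, most respiratory chain transcripts were at a lower level than in the untreated cells, by a small amount, and no single member passed the test. The fitted log2 fold change was below 0 for 77 of 80 members, where 50.8% of all 15165 tested genes lay below 0. The median over the members was -0.26, and the median over all tested genes was -0.0054. In edgeR's quasi-likelihood test with line and treatment, 0 of 80 members had a Benjamini-Hochberg adjusted p under 0.05, against 0.00659% of all genes, which is 1 gene. The lowest adjusted p of any member was 0.578. At an unadjusted p under 0.05, 14 members were lower (17.5%, background 5.16%) and 0 were higher (background 3.38%). DESeq2 and limma-voom on the same summed counts also called 0 members (background 0.626% and 0.00659%), with 8 and 16 members at an unadjusted p under 0.05 (background 7.04% and 10.2%). In simulated counts for this comparison, the test called 0% of genes changed 1.25-fold, 12% of those changed 1.5-fold and 66% of those changed 2-fold. The changed genes were drawn from those above the median level, and their spread followed the fitted trend. The change was the same in all lines and no line differences were simulated, so these rates may not hold for the members.

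When the 12 libraries were taken as separate samples, 28 members were called lower (background 10.1%) and 1 higher (background 7.95%). With a term for the library set as well, 43 were called lower (background 11.9%) and 1 higher (background 8.69%). These fits treat repeat libraries as independent, and their p-values describe the libraries rather than the lines.

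By line, the difference was smallest in DDKC_9750 and largest in DDKC_9804. The median over the tested members was -0.053 in line DDKC_9750, -0.20 in line DDKC_9790 and -0.48 in line DDKC_9804, each a difference of log2 CPM between 1 treated and 1 untreated sample, with no test. Over all genes tested, the same medians were -0.0046, 0 and -0.043. In line DDKC_9750, 51 of 80 members were lower with rDKK3 (background 51.5%), in line DDKC_9790 75 (background 49.6%) and in line DDKC_9804 78 (background 54%). Members lower in all 3 lines numbered 49 (61.3%, background 18.2%) and those higher in all 3 numbered 1 (1.25%, background 14.2%). The lowest of the 3 values lay in line DDKC_9804 for 70 of 80 members (87.5%, background 40.4%), and 38 members were below -0.5 there (47.5%, background 18.5%). Each library set alone gave 48 members lower in all 3 lines. Without line DDKC_9804 the median was -0.14 and 69 members lay below 0. Without line DDKC_9750 the median was -0.36.

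**Figure D1:**
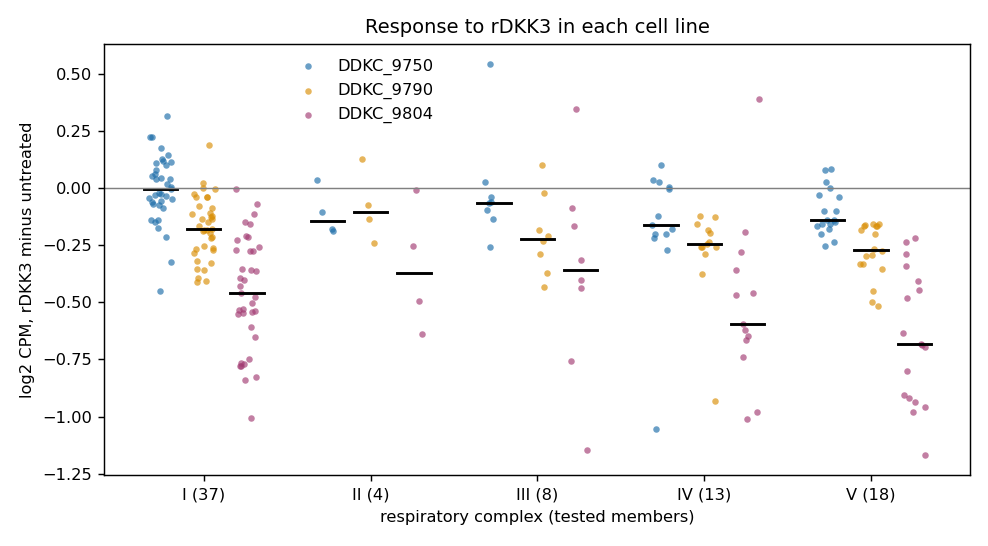
Difference of log2 CPM between the treated and the untreated sample of each line, for the 80 tested members by respiratory complex. Each point is 1 member, colours are lines and bars are medians. In every complex the median of line DDKC_9804 is the lowest, from -0.36 in complex III to -0.68 in complex V.

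The promoters of the members were read from RefSeq (GRCm38.p6, 250 bases before to 50 after the annotated start) to see which letters they share. Of the 80 tested members, 66 had a window by symbol or older symbol. The 27025 genes with a window were not filtered for expression, so the shares of all genes below include genes not tested here. The 2 sets of genes are therefore not alike. The ETS-family core bound by GABPA, CCGGAAG, was found on either strand in 16 of 66 members (24.2%) and in 9.93% of the 27025 genes with a window. The YY1 core AAGATGGC was found in 10 members (15.2%, all genes 3.19%), and the NRF1 core GCGCATGCG in 8 (12.1%, all genes 1.95%). The GC box GGGCGG was found in 26 members (39.4%, all genes 38.2%), TGACGTCA in 4 (6.06%, all genes 2.03%) and TCAAGGTCA in 2 (3.03%, all genes 0.466%). GABPA, YY1 and NRF1 are known regulators of respiratory genes, and a match of letters is a description, not a binding site. The median log2 fold change with rDKK3 was -0.33 for the 16 members with CCGGAAG and -0.26 for the 50 without, -0.31 and -0.25 for AAGATGGC, -0.30 and -0.26 for GCGCATGCG and -0.36 and -0.26 for TCAAGGTCA. It was nearer to 0 in the members with the GC box (-0.22, against -0.29 without) and with TGACGTCA (-0.20, against -0.26). None of these differences was tested.

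The 100 bases upstream of the start are shown for 5 members on which the results below turn or which carry the NRF1 core. Capitals mark the letters of any of the 6 motifs on either strand, and no motif overlaps a different one in these stretches.
Uqcrh (complex III, chr4:116075071-116075170, minus strand): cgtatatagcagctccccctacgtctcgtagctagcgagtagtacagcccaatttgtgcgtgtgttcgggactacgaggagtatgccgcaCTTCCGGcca
Uqcr11 (complex III, chr10:80406822-80406921, minus strand): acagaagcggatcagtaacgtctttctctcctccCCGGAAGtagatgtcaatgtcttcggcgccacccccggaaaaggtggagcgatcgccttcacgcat
Cox6a1 (complex IV, chr5:115348959-115349058, minus strand): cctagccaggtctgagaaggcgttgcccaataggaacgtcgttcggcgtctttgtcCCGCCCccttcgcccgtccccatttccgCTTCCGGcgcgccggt
Sdhd (complex II, chr9:50603850-50603949, minus strand): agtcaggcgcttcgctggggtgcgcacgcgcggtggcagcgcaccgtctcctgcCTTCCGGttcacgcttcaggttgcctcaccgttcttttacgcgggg
Atp5me (complex V, chr5:108434400-108434499, minus strand): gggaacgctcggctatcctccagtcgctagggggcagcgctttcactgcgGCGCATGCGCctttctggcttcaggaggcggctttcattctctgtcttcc
The first 4 carry the GABPA core within these 100 bases, Cox6a1 with a GC box as well, and Atp5me carries the NRF1 core on both strands.

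Complex V had the lowest median of the 5 complexes, -0.35 over 18 members, with 18 of 18 below 0 and 14 lower in all 3 lines. Atp5mf, subunit f of the membrane part, stood at 84.6, 88.2 and 77.8 CPM in untreated lines DDKC_9750, DDKC_9790 and DDKC_9804 and at 71.0, 62.5 and 39.4 CPM with rDKK3. The treated samples all lay below the untreated ones. Its fitted log2 fold change was -0.58 (SE 0.17, n = 3 lines; edgeR adjusted p = 0.578). Atp5f1e, the epsilon subunit of the central stalk, stood at 61.3, 71.4 and 59.9 CPM untreated and at 55.2, 49.9 and 31.6 CPM with rDKK3, again with no overlap between conditions. Its log2 fold change was -0.53 (SE 0.17, n = 3 lines; edgeR adjusted p = 0.578).

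The subunits that carry ATP synthesis itself were closer to no difference. Atp5f1b stood at 883, 852 and 983 CPM untreated and at 792, 759 and 845 CPM with rDKK3, a log2 fold change of -0.18 (SE 0.11). Atp5f1a stood at 699, 709 and 676 CPM untreated and at 680, 635 and 575 CPM treated, a log2 fold change of -0.14 (SE 0.12). For both genes each line was lower with rDKK3, and neither difference passed the test.

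The c ring that turns in the membrane is built from 1 protein encoded by 3 genes. Atp5mc3 was the most abundant of them by counts, at 187, 161 and 162 CPM untreated and 167, 131 and 93.1 CPM treated (log2 fold change -0.42, SE 0.16). Atp5mc1 stood at 44.4, 38.9 and 54.4 CPM untreated and 41.5, 34.3 and 29.0 CPM treated (-0.40, SE 0.19). Atp5mc2 stood at 58.6, 112 and 56.3 CPM untreated and 49.8, 87.8 and 40.3 CPM treated (-0.36, SE 0.11). All 3 were lower in each line and none was called, and line DDKC_9790 held the highest Atp5mc2 level in both conditions.

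Complex IV followed, with a median of -0.31 over 13 tested members, 13 of 13 below 0 and 8 lower in all 3 lines. Cox4i1 stood at 193, 280 and 244 CPM untreated and at 160, 216 and 158 CPM with rDKK3. The ranges of the conditions overlapped because untreated DDKC_9750 was below treated DDKC_9790, while each line was lower after treatment. Its log2 fold change was -0.42 (SE 0.12, n = 3 lines; edgeR adjusted p = 0.578, unadjusted 0.0171).

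Cox7b, a small subunit with a single expressed isoform here, stood at 96.2, 85.4 and 89.5 CPM untreated and at 88.3, 74.5 and 45.3 CPM treated (log2 fold change -0.43, SE 0.20). Cox7a1, the muscle isoform, was close to the floor of detection at 0.713 to 2.67 CPM untreated and 0.493 to 1.35 CPM treated (-0.60, SE 0.38). Its ubiquitous counterpart Cox7a2 stood at 55.7, 76.9 and 60.6 CPM untreated and 48.4, 68.9 and 38.2 CPM treated (-0.34, SE 0.15). Cox7a2l, a related protein that takes part in supercomplexes of complexes III and IV, had nearly the same difference in each line, -0.22, -0.26 and -0.28. The ubiquitous isoforms made up nearly all of the reads of these families, and for Cox4, Cox6a, Cox7b and Cox8 the tissue-specific forms were below the filter.

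The other ubiquitous isoforms lay mostly below 0 and differed in size between the lines. Cox6a1 lay at -0.18, -0.23 and -0.36 in lines DDKC_9750, DDKC_9790 and DDKC_9804, and Cox6b1 at 0.028, -0.29 and -1.01. Cox8a lay at -0.0041, -0.18 and -0.59. Cox5a, a core-facing subunit on the matrix side, stood at 91.7, 101 and 80.7 CPM untreated and 98.3, 92.4 and 70.5 CPM treated (log2 fold change -0.073, SE 0.11), with line DDKC_9750 above and the others below their untreated level.

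Complex III held both the most negative and the most positive of the differences that had 1 sign in all 3 lines outside Cox7a1. Uqcrh, the hinge protein beside cytochrome c1 whose upstream stretch is shown above, stood at 92.9, 146 and 102 CPM untreated and at 77.8, 113 and 46.0 CPM with rDKK3. Treated DDKC_9790 was above untreated DDKC_9750 and DDKC_9804, so the conditions overlapped, and treated DDKC_9804 was the lowest sample. The log2 fold change was -0.59 (SE 0.20, n = 3 lines; edgeR adjusted p = 0.578), with -1.15 in line DDKC_9804 alone. Uqcr11, the smallest subunit, stood at 47.1, 52.5 and 40.2 CPM untreated and 42.9, 45.4 and 23.7 CPM treated (-0.37, SE 0.16).

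Uqcrq, a small subunit near the ubiquinone-binding part of the complex, was the exception among the 80 members. It stood at 42.3, 63.3 and 55.5 CPM untreated and at 61.8, 67.9 and 70.6 CPM with rDKK3, higher in each line. The log2 fold change was 0.33 (SE 0.13, n = 3 lines), with an edgeR adjusted p of 0.585. In the edgeR fit of 12 separate libraries its adjusted p was 0.0067, and over all alternatives it ran from 0.0067 to 1.00. The 2 other members above 0 were Ndufa10 at 0.045 and Ndufs5 at 0.0065, both near no difference. Other subunits of complex III lay between these extremes, with Uqcrfs1, the Rieske iron-sulfur protein, at -0.25 (SE 0.12) and Uqcrc1, a core protein, at -0.054 (SE 0.11).

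**Figure D2:**
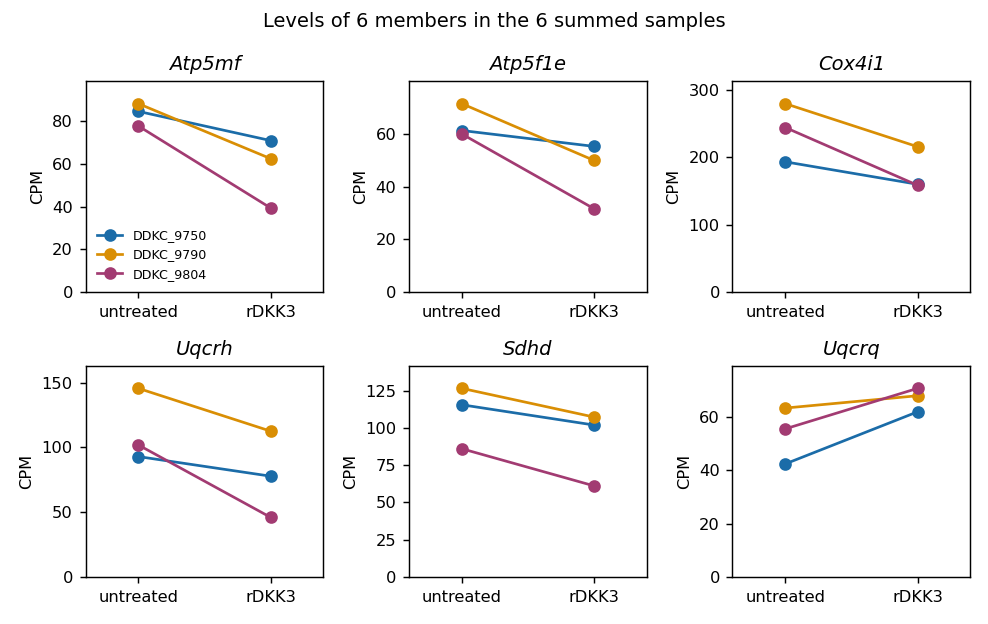
CPM of 6 members in the 6 summed samples, untreated and with rDKK3, 1 line of points per cell line. Atp5mf, Atp5f1e, Cox4i1, Uqcrh and Sdhd are lower with rDKK3 in each line, and Uqcrq is higher in each line.

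Complex I is the largest of the complexes and its median was -0.20 over 37 tested members, with 35 below 0, 18 lower in all 3 lines and 0 higher in all 3. The 2 lowest values with 1 sign in all lines belonged to small accessory subunits. Ndufb3 stood at 29.5, 33.6 and 28.8 CPM untreated and at 26.1, 26.3 and 16.8 CPM treated (log2 fold change -0.44, SE 0.16; edgeR adjusted p = 0.583). Ndufa2 stood at 59.6, 71.6 and 58.3 CPM untreated and at 56.6, 54.0 and 32.8 CPM treated (-0.43, SE 0.17; edgeR adjusted p = 0.585). In both genes the treated samples all lay below the untreated ones, with line DDKC_9804 the lowest.

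Core subunits of complex I lay closer to 0. Ndufs1, which carries iron-sulfur clusters, had a log2 fold change of -0.074 (SE 0.14) and Ndufv1, which binds NADH, at -0.046 (SE 0.12). Ndufs1 was above its untreated level in line DDKC_9790 (0.19), and Ndufv1 in line DDKC_9750 (0.12) and by 0.0012 in line DDKC_9790. Ndufa4, first described in complex I and now placed in complex IV, stood at 111, 122 and 82.5 CPM untreated and 101, 112 and 48.0 CPM treated (-0.35, SE 0.17).

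Complex II is also an enzyme of the citric acid cycle, and its 4 subunits had a median of -0.18. The membrane anchors Sdhc and Sdhd were lower in all 3 lines. Sdhd stood at 116, 127 and 86.0 CPM untreated and 102, 107 and 61.1 CPM treated (log2 fold change -0.30, SE 0.12; edgeR adjusted p = 0.585), with overlapping conditions. Sdhc stood at 101, 108 and 96.0 CPM untreated and 88.2, 98.0 and 61.7 CPM treated (-0.32, SE 0.14). The soluble subunits lay nearer to 0, with Sdhb, the iron-sulfur protein, at -0.062 (SE 0.10) and also lower in each line, and Sdha, the flavoprotein with the succinate site, at -0.031 (SE 0.13). None of the 4 was called.

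Most members are short genes. The median coding length of the tested members was 430.5 bases, and that of the tested protein-coding genes 1401 bases. The 19 members with a coding length under 300 bases had a median log2 fold change of -0.35, the 30 between 300 and 500 bases -0.26, the 19 between 500 and 1000 bases -0.25 and the 11 between 1000 and 2000 bases -0.14. Other protein-coding genes in the same classes had medians of -0.24, -0.20, -0.090 and -0.0020. In the fit over lines the members lay below the other genes in each class up to 2000 bases, and among the other genes too the shorter classes had the lower medians. Line DDKC_9750 did not share this order: its members had medians of -0.063, -0.041, -0.10 and 0.035 in the 4 classes and the other genes -0.065, -0.095, -0.033 and 0, so the members were lower only between 500 and 1000 bases. In line DDKC_9804, Spearman's rho between coding length and the difference was 0.51 across the 80 members and 0.25 across 12327 other genes, which are not independent replicates. The same values were 0.30 and 0.28 in line DDKC_9790 and 0.085 and 0.065 in line DDKC_9750. With a trend on transcript length removed from each sample, the median of the members was -0.18 and 71 of 80 were below 0. RNA quality and fragment length were not among the values analysed, and their part in the differences was not tested.

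**Figure D3:**
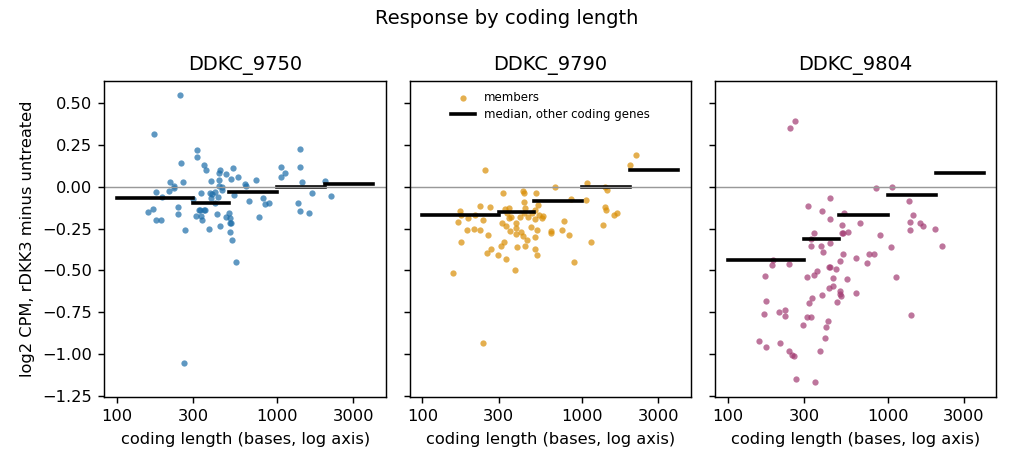
Difference of log2 CPM between the treated and untreated sample against coding length, for the 80 tested members (points) in each line. Black bars are medians of other protein-coding genes in the same length class. In line DDKC_9804 the members under 300 bases have a median of -0.76 and the other genes of that class -0.44.

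As a share of all counts, the members together took 0.750%, 0.777% and 0.691% in the untreated samples of lines DDKC_9750, DDKC_9790 and DDKC_9804 and 0.710%, 0.703% and 0.535% with rDKK3. The mean was 0.739% ± 0.0441 (SD, n = 3 lines) untreated and 0.649% ± 0.0996 treated, and every line was lower. Complex V took the largest share, 0.316%, 0.309% and 0.297% untreated and 0.292%, 0.275% and 0.234% treated. Complex I took 0.194%, 0.205% and 0.168% untreated and 0.191%, 0.189% and 0.129% treated.

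The subunits encoded in the mitochondrial genome had fitted values above 0. Their 13 genes and the other mitochondrial genes of the table took 0.787%, 0.702% and 0.778% of the counts untreated and 1.22%, 1.38% and 1.08% with rDKK3. Of the 13 subunit genes, 11 were tested, all 11 lay above 0, 10 were higher in all 3 lines, and the median log2 fold change was 0.75. None was called in the summed edgeR fit, and 9 had an unadjusted p under 0.05, against 3.38% of all genes. In 12 separate libraries 7 were called higher (background 7.95%). mt-Nd2, a membrane subunit of complex I, stood at 453, 268 and 728 CPM untreated and 756, 577 and 1271 CPM treated (0.88, SE 0.13), and mt-Co1, the catalytic subunit of complex IV, had a log2 fold change of 0.61 (SE 0.14). mt-Atp6 (1.00, SE 0.26) rested on 422 counts in all. Removing the mitochondrial genes from the library sizes left the median of the nuclear-encoded members at -0.26.

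**Figure D4:**
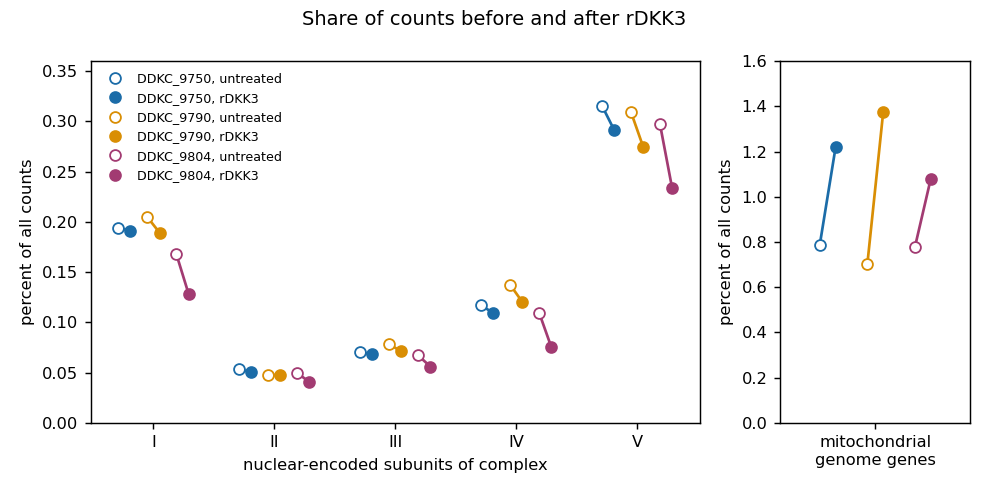
Percent of all counts taken by nuclear-encoded subunits of each complex (left) and by genes of the mitochondrial genome (right). Open points are untreated and filled points rDKK3-treated samples of each line. The mitochondrial genome genes are higher with rDKK3 in each line, and the members of complexes I, III, IV and V are lower.

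Taken as whole lists, genes that build or regulate the chain had medians closer to 0 than its subunits, a difference that was not tested. By complex this did not hold for complex II, with -0.19 for its 4 assembly factors and -0.18 for its 4 subunits. The median transcript length was 1046.5 bases for the members, 1728 to 2735.5 for the assembly factors of each complex and 4037.5 for the regulators. The part of length in this difference was not tested. Of 57 tested assembly factors, 32 lay below 0 and the median log2 fold change was -0.047, with 0 called in the summed edgeR fit and 2 lower at an unadjusted p under 0.05 (background 5.16%). In 12 separate libraries 8 were called lower (background 10.1%) and 3 higher (background 7.95%). The assembly list holds Ndufab1, at -0.095, which is also a subunit of complex I but did not match the member symbols. Nubpl, which inserts iron-sulfur clusters into complex I, lay at -0.57 (SE 0.22) and Fmc1, a complex V assembly factor, at -0.67 (SE 0.31), whereas Ecsit, a complex I assembly factor, lay at 0.38 (SE 0.16) and Cox18, which inserts a complex IV subunit, at 0.45 (SE 0.21). The 12 tested genes for cytochrome c and ubiquinone synthesis had a median of -0.026, with Coq7 at -0.31 and Coq10a at 0.25. The 13 citric acid cycle genes had a median of -0.080, with Idh3g at -0.22 and Dld at 0.20.

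Among 14 regulators the median was 0.063. The transcription factors Gabpa and Nrf1 lay at -0.15 (SE 0.10) and -0.13 (SE 0.12). The coactivator Pprc1 stood at 64.5, 71.6 and 68.5 CPM untreated and 72, 87.0 and 119 CPM treated (0.41, SE 0.16). Its relative Ppargc1b had a fitted value of 1.97 (SE 0.70) on 94 counts in all, with 0 counts in untreated DDKC_9790. None of these regulators was called in the summed fit.

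Markers of cell type were also measured beside these differences. Of the 5 tested epithelial markers 4 lay below 0 and 3 were lower in all 3 lines, with Krt19 at -0.55 (SE 0.12), and the summed epithelial level was lower with rDKK3 in each line. Among mesenchymal markers Vim lay at -0.49 and Fn1 at 0.21. Among leukocyte markers Cd68 lay at 0.88, and the summed leukocyte level was 9.54, 29.2 and 10.4 CPM untreated and 10.4, 46.1 and 17.0 CPM treated. The summed fibroblast level was 51.1, 9.24 and 7.19 CPM untreated and 135, 11.7 and 5.75 CPM treated. In line DDKC_9750, Acta2 of this list stood at 38.1 CPM untreated and 127 CPM treated. The part of these markers in the differences of the members was not tested. Since these are bulk samples, less RNA of the members per cell and a different mix of cells cannot be told apart.

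The lines also differed from each other in the level of some members, in both conditions. Of 80 members, 17 were called for line in edgeR's test over both line terms (21.2%), where 35.3% of all genes were called. Without line DDKC_9750 32 members were called (40%, background 33.3%), without DDKC_9804 11 (13.8%, background 30.7%) and without DDKC_9790 0 (background 10.2%). Compared with line DDKC_9750, line DDKC_9790 differed in 7 members, 6 of them higher (background 27% in either direction, 14% higher). Line DDKC_9804 differed from DDKC_9750 in 1 member (background 18.5%), Sdhd, which was lower. Between DDKC_9804 and DDKC_9790, 17 members were called, all lower in DDKC_9804 (background 21.3% in either direction, 11.4% lower). The fit had 2 residual degrees of freedom, and a line and the tumor it came from cannot be told apart. The called members were spread over complexes I (7), II (1), IV (6) and V (3), with 0 in complex III.

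In complex I, Ndufa6 differed most. It stood at 73.1 and 70.9 CPM in untreated and treated DDKC_9750, at 201 and 157 CPM in DDKC_9790 and at 72 and 54.9 CPM in DDKC_9804. Line DDKC_9790 was above the other lines by 1.30 over DDKC_9750 (SE 0.15; edgeR adjusted p = 0.0080), and DDKC_9804 was below it by -1.50 (SE 0.15; adjusted p = 0.0066). Ndufc1 stood at 23.1 and 23 CPM in DDKC_9750, 39.6 and 36.6 CPM in DDKC_9790 and 23.9 and 14.0 CPM in DDKC_9804. The difference of DDKC_9804 from DDKC_9790 was -1.03 (SE 0.23), and for Ndufb5 it was -0.94 (SE 0.15).

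In complex IV, Cox5b was the member that was lower in DDKC_9790. It stood at 69.1 and 70.8 CPM in DDKC_9750, at 38.1 and 32.1 CPM in DDKC_9790 and at 68.1 and 43.4 CPM in DDKC_9804, a difference of -1.01 from DDKC_9750 (SE 0.20; edgeR adjusted p = 0.023). Cox8a stood at 103 and 103 CPM in DDKC_9750, 197 and 174 CPM in DDKC_9790 and 116 and 77.1 CPM in DDKC_9804, and DDKC_9790 was above DDKC_9750 by 0.84 (SE 0.18; edgeR adjusted p = 0.028). For Cox6c the difference of DDKC_9804 from DDKC_9790 was -0.99 (SE 0.21; edgeR adjusted p = 0.030, at most 0.073 over the alternatives, with the length trend removed).

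Cox6b2, an isoform known from testis, was detected almost only in line DDKC_9790. It had 133 and 97 counts in untreated and treated DDKC_9790, 3 and 0 in DDKC_9750, and 8 and 4 in DDKC_9804. Per count sequenced, DDKC_9790 was above DDKC_9750 by 69.0-fold (exact 95% interval 23.3 to 337, counting error only) and above DDKC_9804 by 21.5-fold (12.1 to 42.3). At 5.72 CPM in untreated DDKC_9790 it remained far below Cox6b1, at 140 CPM in the same sample.

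In complex V, Atp5mc2 stood highest in DDKC_9790 as described above, and DDKC_9804 was below DDKC_9790 by -1.06 (SE 0.14; edgeR adjusted p = 0.010). Its level rested on the library set, since the libraries with the higher number exceeded the others by 1.27 on the log2 scale. Without the untreated DDKC_9790 library of the higher number the difference was -0.59 (edgeR adjusted p = 0.20, the highest over the alternatives, the lowest being 6.24e-07). Atp5mk, a small membrane subunit, differed by -0.87 (SE 0.18; edgeR adjusted p = 0.030, from 0.00010 to 0.056 over the alternatives). Atp5pb, the stalk that holds the catalytic head, differed by -0.62 (SE 0.14; edgeR adjusted p = 0.034, from 1.05e-05 to 0.092). For Sdhd in complex II, DDKC_9804 was below DDKC_9790 by -0.68 (SE 0.14; edgeR adjusted p = 0.030, from 1.07e-05 to 0.066). Without the untreated DDKC_9790 library of the higher number the adjusted p was 0.051 for Atp5mk and 0.092 for Atp5pb, and without that of untreated DDKC_9750 it was 0.051 for Atp5pb and 0.058 for Atp5mc2. Without the treated DDKC_9790 library of the higher number it was 0.085 for Atp5mc2, at a difference of -0.74.

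**Figure D5:**
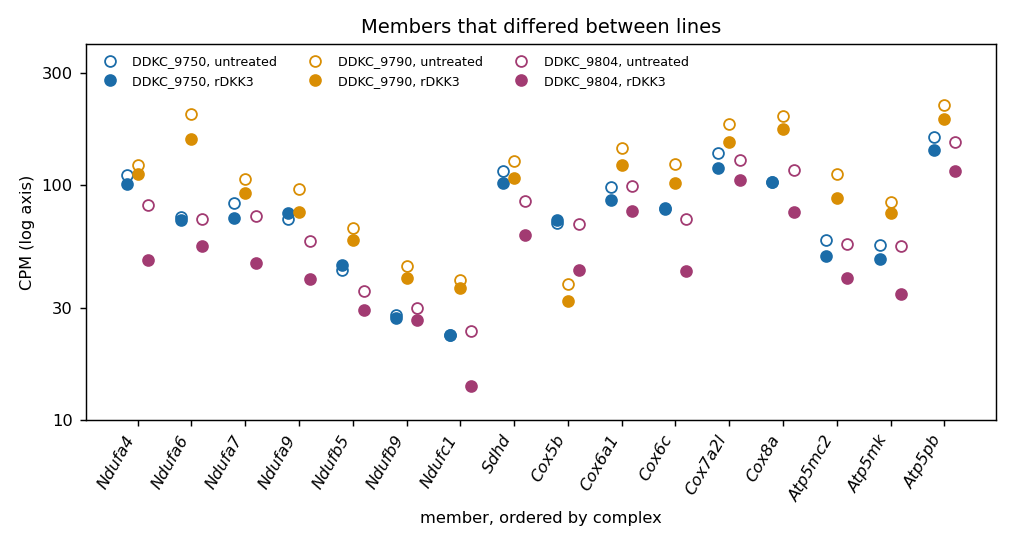
CPM (log axis) of the 16 members called for line other than Cox6b2, in the 6 summed samples. Open points are untreated and filled points treated samples. In each condition line DDKC_9790 is the highest in all members shown except Cox5b, where it is the lowest.

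The called members were not spread evenly over the genome. Of the 16 tested members on chromosomes 3, 6, 15 and 19, 11 were called for line (68.8%), and of the 64 elsewhere 6 were called (9.38%). The same shares over all tested genes were 47.9% and 32.6%. These 4 chromosomes were chosen after their values were seen, as those on which other protein-coding genes were higher in DDKC_9790 than in DDKC_9750, with medians of 0.51, 0.40, 0.40 and 0.48, and lower in DDKC_9804 than in DDKC_9790, with medians between -0.45 and -0.40. The number of copies of these chromosomes was not measured. For DDKC_9804 against DDKC_9790, Ndufa6 and Atp5mc2 on chromosome 15 lay at -1.50 and -1.06, and the genes within 5 Mb of them had medians of -0.58 and -0.62.

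The library sets left a mark on 7 of the 80 members, whose level differed by more than 0.5 on the log2 scale between the libraries with higher and lower numbers (8.75%, background 6.71%). Atp5mg, subunit g, differed by 2.58 and stood at 11.1 and 61.7 CPM in the libraries of untreated DDKC_9750. The others were Ndufs5 (1.46), Atp5mc2 (1.27), Ndufb4 (1.25), Cox7c (0.78), Ndufb2 (-0.53) and Ndufb8 (-0.63). All 7 share at least 100 bases at 97% identity or more with another annotated gene, as do 25 of the 80 tested members, and the part of such copies in the differences between library sets was not tested. The 55 members without such a copy had a median of -0.25 with rDKK3 and 31 of them were lower in all 3 lines. The 73 members with library sets within 0.5 had a median of -0.26.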

How the data were processed

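RNA of 12 libraries was sequenced by the authors as 50-base read pairs and aligned with STAR 2.7.9a to GRCm39, per the submitters' notes. The deposited values are raw counts per gene on GENCODE genes, strand-specific and not normalized, and 0 value columns were left unmapped. Library totals ran from 3822987 to 24541083 counts. The deposited comparison columns were not used. Members and lists were chosen with earlier results of these data known.

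The libraries of a line and condition were summed, since with a library-set term they agree within sampling noise (without it the deviance was 6.83). edgeR 4.0.16 in R 4.3.3 was run with TMM normalization, line and treatment on 15165 genes kept by filterByExpr, with Benjamini-Hochberg adjustment at 0.05. Log2 CPM used a prior count of 2. Pairing came from the line in the titles, and deviations of untreated and treated samples correlated at 0.80 to 0.87 within lines. DESeq2 1.42.0, limma 3.58.1, other normalizations, filters, depths, library sets and left-out samples were alternatives. The fit was tested on simulated data. Named were the lowest and highest members of each complex with 1 sign in all lines, the 3 largest line differences, isoform families, core subunits and members below the filter. GENCODE M39 gave lengths and copies. Some items are not reported here.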

Additional observations from a re-analysis of the deposited data

Results flagged for a closer look

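In 5 members that the text names, both library sets of 1 line moved one way and both library sets of another line the opposite way with rDKK3. The share of all genes that meet this rule was not computed. Mixed directions were common in the summed samples, where 18.2% of all tested genes were lower and 14.2% higher in all 3 lines. The difference between lines was not tested, since each line has 1 summed sample per condition. Ndufs1 lay at -0.057 in line DDKC_9750, 0.19 in DDKC_9790 and -0.36 in DDKC_9804. Ndufv1 lay at 0.12 in DDKC_9750 and -0.26 in DDKC_9804. Sdha lay at 0.035 in DDKC_9750, 0.13 in DDKC_9790 and -0.25 in DDKC_9804. Cox5a lay at 0.10 in DDKC_9750, -0.13 in DDKC_9790 and -0.19 in DDKC_9804. Cox5b lay at 0.034 in DDKC_9750, -0.24 in DDKC_9790 and -0.65 in DDKC_9804. All values are differences of log2 CPM, treated minus untreated.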

How the results depend on the processing

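The count of members called with rDKK3 was 0 in every setting but the fits of 12 libraries, with 29 called (all genes 18.1%), or 44 with the library set as a replicate block (20.6%). The median of the members stayed below 0 throughout, between -0.30 and -0.18, and between -0.36 and -0.14 with lines, library sets or libraries left out. The count called for line was 62 in 12 libraries (all genes 77.7%), 65 with the replicate block (80.5%), 7 with no replicate block (34.4%), 10 with the length trend removed (35.6%), 10 of the 55 members without a copy (35.3%, a setting added after seeing the data), and 0 to 32 with samples left out: 0 without line DDKC_9790 (10.2%), 11 without DDKC_9804 (30.7%) and 32 without DDKC_9750 (33.3%). For line DDKC_9790 alone the median was between -0.22 and -0.21 with each library set normalized alone, and -0.23 and -0.19 in the sets when the 12 libraries were normalized together. Members near 0 changed sign. With the length trend removed, Ndufv1 lay at 0.032, Uqcrc1 at 0.024, Cox5a at 0.036 and Cox6b2 at 0.014. With samples left out, Ndufs1 lay between -0.20 and 0.066, Ndufv1 between -0.12 and 0.059, Sdha between -0.10 and 0.081, Uqcrc1 between -0.086 and 0.0029 and Cox6b2 between -0.43 and 0.14. The cause was not tested. Of the other comparisons of single members, 1349 kept direction and call, 45 became called in fits of 12 libraries and 11 lost their call, all line differences of Sdhd, Cox6c, Atp5mc2, Atp5mk or Atp5pb. Depth limited Cox7a1, Cox6b2 and the 9 members below the filter.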
